A study of Zea mays with 18 samples.

Results

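The first division of the maize zygote gives a small apical cell and a larger basal cell, and the RNA of these sister cells was compared here to see how unequal that division leaves them. Of the 18 libraries in the series, 6 were used: 3 of apical cells and 3 of basal cells, chosen by the cell type named on each library. The remaining libraries hold sperm cells, egg cells and zygotes collected 12 h and 24 h after pollination (so reading hap in their titles), with 3 libraries per group, and serve below as a reference for levels. Every group came from untreated wild-type plants of the inbred line B73, so no allele or agent separates the groups. Cells were dissected by hand and pooled, 16 apical cells per library and 13 or 14 basal cells per library, and polyadenylated RNA was amplified as cDNA before sequencing. The number of cells therefore moves with the cell type, and the share of each in a difference cannot be told apart. Counts are relative within a library, so a difference in total RNA per cell is not visible, and in a pool fewer cells that express a gene cannot be told apart from less RNA per cell.

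In flowering plants the apical daughter is the founder of most of the embryo proper, while the basal daughter forms the suspensor and contributes to the root end. In Arabidopsis the polarity is set up with the help of WOX homeobox factors, of which WOX2 is kept in the apical lineage and WOX8 and WOX9 in the basal lineage, and of auxin, which is moved into the apical cell and read there by response factors. Maize carries relatives of these genes, and also a family of embryo sac genes that encode small secreted defensin-like peptides, made by the egg apparatus before fertilization.

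Total counts ran from 18199750 to 25771168 per library, and between 17497 and 18962 genes reached 1 CPM, the count scaled to library size, in each. The spread between sister cell types lay within that between libraries of the same cell type or close to it. Over the 13811 genes with a mean of at least 5 CPM, the median absolute log2 difference between 2 libraries was 0.377 to 0.456 among apical libraries, 0.305 to 0.349 among basal libraries and 0.326 to 0.466 between an apical and a basal library. The first principal component, with 37.8% of the variance, placed apical replicate 1 with basal replicates 1 and 3 on one side and apical replicates 2 and 3 with basal replicate 2 on the other, so it did not separate the cell types. The second, with 22.0%, ran partly by cell type. It put apical replicates 1 to 3 at 64.43, -7.575 and 53.3 and basal replicates 1 to 3 at -0.9314, -46.25 and -62.97, which overlapped. The 2 most alike libraries of different cell type were apical replicate 2 and basal replicate 2, at 0.326.

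Few genes passed the test between the sister cells. Of 20100 genes tested with edgeR's quasi-likelihood test, 2 had a Benjamini-Hochberg adjusted p under 0.05, which is 0.00995% of those tested. Both were higher in basal cells, namely the embryo sac gene es4 and GRMZM2G125350, which has no name in the reference, and 0 genes were called higher in apical cells. At an unadjusted p under 0.05 there were 1737 genes, or 8.64%, of which 730 (3.63%) were higher in apical cells and 1007 (5.01%) in basal cells. In 1268 genes (6.31%) all apical libraries lay above all basal libraries, and in 1976 genes (9.83%) the reverse held. The median log2 fold change of apical over basal cells was 0.003 over all tested genes, with quartiles of -0.34 and 0.33, and 2399 genes (11.9%) differed by more than 2-fold. Among the 13811 genes of at least 5 CPM these were 802 (5.81%).

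**Figure D1:**
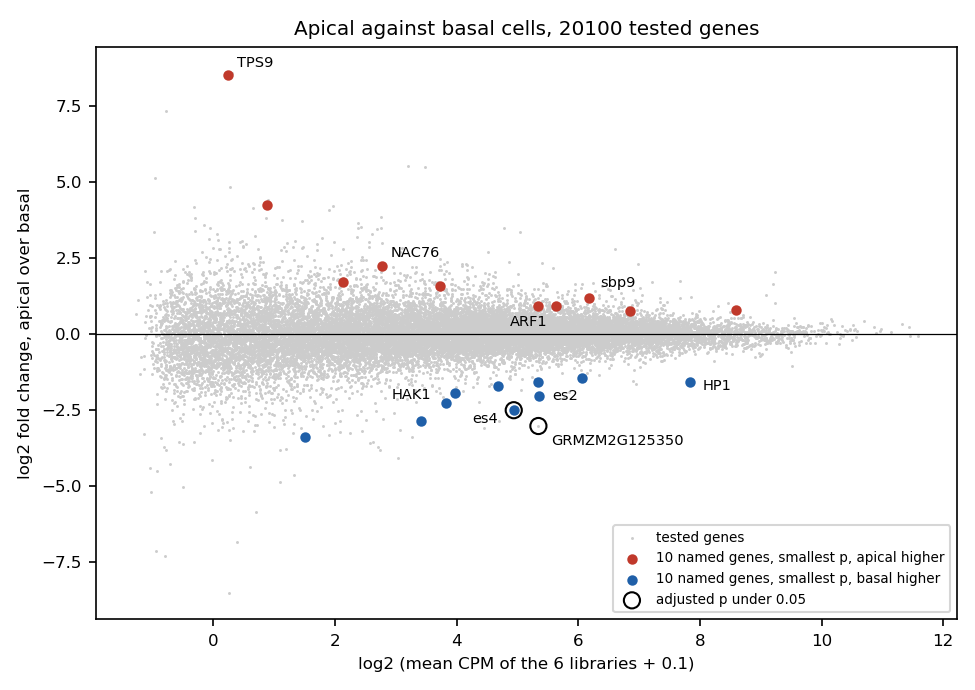
Log2 fold change of apical over basal cells (y axis) against the log2 mean level of the 6 libraries (x axis, CPM + 0.1), 1 point per tested gene. Most genes lie near 0, the 2 ringed genes with an adjusted p under 0.05 are both higher in basal cells, and the fitted fold change of TPS9 is no bound because its basal counts are all 0.

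Pairing the libraries by replicate number, apical 1 with basal 1 and so on, did not add calls in edgeR. With the number as a replicate block 0 genes had an adjusted p under 0.05, against 2360 genes (11.7% of 20100) at an unadjusted p under 0.05. The 3 genes closest to the threshold, each with an adjusted p of 0.0971 in edgeR with the block, were GRMZM2G125350, the phosphotransfer gene HP1 and the unnamed GRMZM2G170400, all higher in basal cells. In the unpaired fit the call was not held by any 5 of the 6 libraries. Without each library in turn the edgeR adjusted p ran from 0.128 to 0.703 for es4 and from 0.0600 to 0.703 for GRMZM2G125350, while the log2 fold change stayed within -2.59 to -2.35 and within -3.33 to -2.86. A second tool, DESeq2, called far more: 126 genes unpaired (0.653% of the 19291 it gave an adjusted p), 42 higher in apical and 84 higher in basal cells, and 613 genes (3.24%) with the block, of which 380 were higher in apical and 233 in basal cells, so the block turned the larger side. The 126 included both genes called by edgeR, and all 126 had an unadjusted p under 0.05 in edgeR.

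Embryo sac genes were higher in basal than in apical cells, and 1 of the 3 tested, es4, passed the test. The gene es4 (GRMZM2G009359) encodes a defensin-like peptide known from the synergids of maize, where it makes the arriving pollen tube burst. It had 8.87, 9.90 and 8.67 CPM in apical replicates 1 to 3 and 62.3, 45.6 and 48.2 CPM in basal replicates 1 to 3. Each basal library lay far above each apical library. The fold was 5.69 (log2 fold change -2.51 ± 0.25, standard error; edgeR adjusted p = 0.0426), and the log2 ratios of the numbered pairs were -2.75, -2.15 and -2.41.

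Its close relative es2 (GRMZM2G128301, also listed as es3) had 15.6, 19.0 and 13.3 CPM in apical cells and 80.7, 53.6 and 63.6 CPM in basal cells. The groups did not overlap, and the log2 fold change was -2.04 ± 0.26, but the edgeR adjusted p of 0.146 missed the threshold. The third member, es1 (GRMZM2G012012), was low, at 0.355, 1.08 and 0.784 CPM in apical cells and 11.8, 3.97 and 2.29 CPM in basal cells, with a log2 fold change of -3.02 ± 0.76 and an edgeR adjusted p of 0.475. Basal replicate 1 was the highest by far, and without it the log2 fold change of es1 was -2.07. The genes es4 and es2 are direct neighbours on chromosome 9 of the reference assembly Zm-B73-REFERENCE-NAM-5.0, with 0 protein-coding genes between them. Members of the family are near-identical in sequence, so how reads were divided among them is uncertain.

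In the zygote before division these genes were much higher than in either daughter. At 24 h es4 had 306, 230 and 582 CPM, es2 had 312, 223 and 570 CPM, and es1 had 291, 211 and 658 CPM. For all 3 genes both daughters lay below every 24 h zygote library, and apical cells lay lowest. Over all tested genes 29.0% had all apical libraries below the 24 h zygotes and 28.2% had all basal libraries below them. The 3 genes form the marker list for egg and embryo sac, whose summed level was 22.8 to 30.0 CPM in apical and 103 to 155 CPM in basal libraries. Their summed level moves with the cell type, and the part of RNA from other embryo sac cells in this difference was not tested.

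The other called gene, GRMZM2G125350, is carried here by its identifier because the reference gives it no name. It had 12.2, 6.79 and 7.54 CPM in apical cells and 68.3, 64.3 and 84.1 CPM in basal cells, without overlap. The fold was 8.15 (log2 fold change -3.03 ± 0.30, edgeR adjusted p = 0.0426), with log2 ratios of -2.44, -3.15 and -3.40 in the numbered pairs. Its course differed from that of the embryo sac genes. It had 0 CPM in every egg and sperm library, 2.30 ± 1.30 CPM (SD, n = 3) in 12 h zygotes and 7.94, 8.59 and 7.67 CPM in 24 h zygotes, a level that overlapped that of the apical cells.

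The gene next to it in the reference, GRMZM2G125233, on chromosome 10 with 0 protein-coding genes between, had a like profile and was looked up after the values of GRMZM2G125350 were seen. It had 8.75, 3.25 and 6.81 CPM in apical cells, 48.2, 40.3 and 47.2 CPM in basal cells and 7.49, 11.7 and 11.1 CPM in 24 h zygotes. The edgeR adjusted p was 0.149. Whether GRMZM2G125233 and GRMZM2G125350 share reads is not known from the table. On the other side, the next gene C5 (GRMZM2G125356) had 9 counts in apical replicate 1 and 0 in the other 5 libraries, and GRMZM2G125424 had 2 to 51 counts over the 6 libraries. A further unnamed gene singled out by its p, GRMZM2G055434, had 1.22, 0.707 and 0.784 CPM in apical cells and 9.50, 16.0 and 20.4 CPM in basal cells, with an edgeR adjusted p of 0.102.

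**Figure D2:**
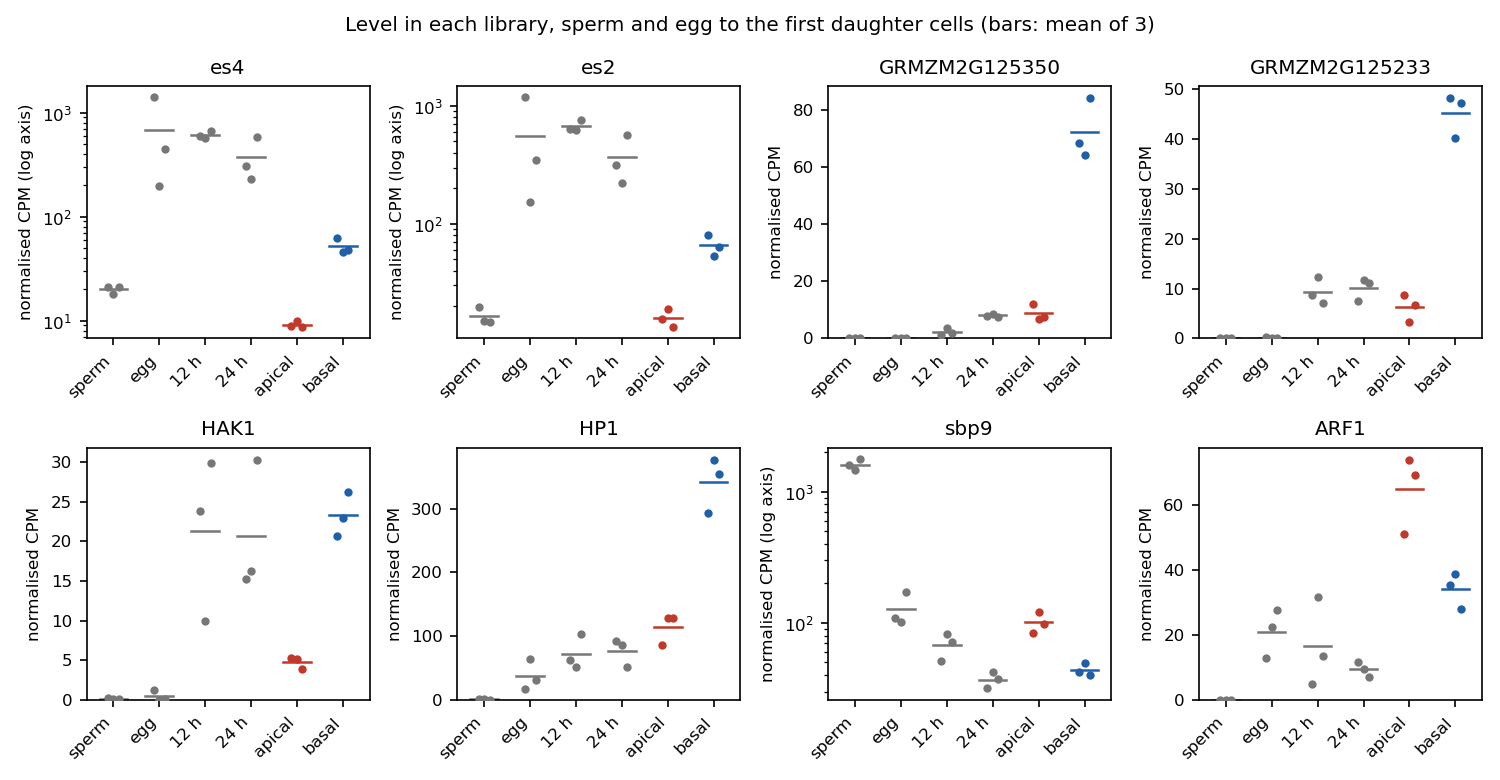
Normalised CPM in each library (points) and the mean of 3 libraries (bars) for 8 genes in sperm, egg, 12 h and 24 h zygotes, apical cells and basal cells; the axes of es4, es2 and sbp9 are logarithmic. The embryo sac genes es4 and es2 are high in eggs and zygotes and lower in both daughters, GRMZM2G125350 and GRMZM2G125233 are highest in basal cells, and ARF1 is highest in apical cells.

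Because fewer than 10 genes were called, the 10 named genes with the smallest p in each direction are described in their place. Apart from es4 they did not pass the threshold in edgeR. On the basal side these were es4, es2, HAK1, HP1, calmodulin, DBP4, pht7, HMT-1, TA1 and sfp1, with edgeR adjusted p of 0.0426 to 0.260. All 10 had basal libraries above apical libraries without overlap, and all 10 were called by DESeq2. Since they were picked by p, that absence of overlap follows from the choice.

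HAK1, a potassium transporter, had 5.32, 5.18 and 3.87 CPM in apical cells and 20.7, 23.0 and 26.2 CPM in basal cells (log2 fold change -2.28 ± 0.30, edgeR adjusted p = 0.149). The 24 h zygotes had 15.3, 16.3 and 30.3 CPM, so basal cells were at the zygote's level and apical cells were below it. The phosphate transporter gene pht7 had 7.29, 7.82 and 4.16 CPM in apical cells and 23.0, 24.3 and 27.3 CPM in basal cells (log2 fold change -1.95 ± 0.33, edgeR adjusted p = 0.234). Here both daughters were below the zygotes, which had 30.2, 33.6 and 77.0 CPM.

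HP1 (ZmHP1), a histidine phosphotransfer protein that relays the cytokinin signal, had 86.8, 128 and 128 CPM in apical cells and 294, 377 and 355 CPM in basal cells (log2 fold change -1.58 ± 0.22, edgeR adjusted p = 0.178). Apical cells overlapped the 24 h zygotes, at 92.6, 86.5 and 52.2 CPM, while all basal libraries lay above them. Its numbered pairs were close to each other, with log2 ratios of -1.75, -1.55 and -1.47. The calcium sensor gene listed as calmodulin (GRMZM2G444621) had 2.29, 3.96 and 1.42 CPM in apical cells and 15.7, 19.5 and 20.4 CPM in basal cells, with an edgeR adjusted p of 0.186. The AP2/ERF-type factor DBP4 (EREB56) had 0.631, 0.330 and 0.441 CPM in apical cells and 4.65, 4.87 and 5.48 CPM in basal cells, also with an edgeR adjusted p of 0.186. For both of these genes basal cells overlapped the 24 h zygotes and apical cells lay below them.

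The remaining 3 genes on the basal side were at moderate levels. HMT-1, a homocysteine methyltransferase of methionine metabolism, had 12.7, 12.9 and 10.4 CPM in apical cells and 41.0, 27.9 and 49.1 CPM in basal cells. TA1 had 38.2, 41.6 and 27.4 CPM in apical cells and 122, 81.2 and 89.7 CPM in basal cells. The gene sfp1 had 21.2, 19.7 and 19.4 CPM against 39.4, 64.1 and 77.4 CPM, and it was the only one of the 10 with both daughters above the zygotes. Relative to the 24 h zygotes 5 of the 10 had apical cells below and basal cells overlapping, 3 had both daughters below, 1 had basal cells above and apical cells overlapping, and 1 had both above. These genes were chosen for low apical and high basal levels, and over all tested genes 29.0% had apical and 28.2% had basal libraries below the zygotes, so nothing is read from these counts.

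**Figure D3:**
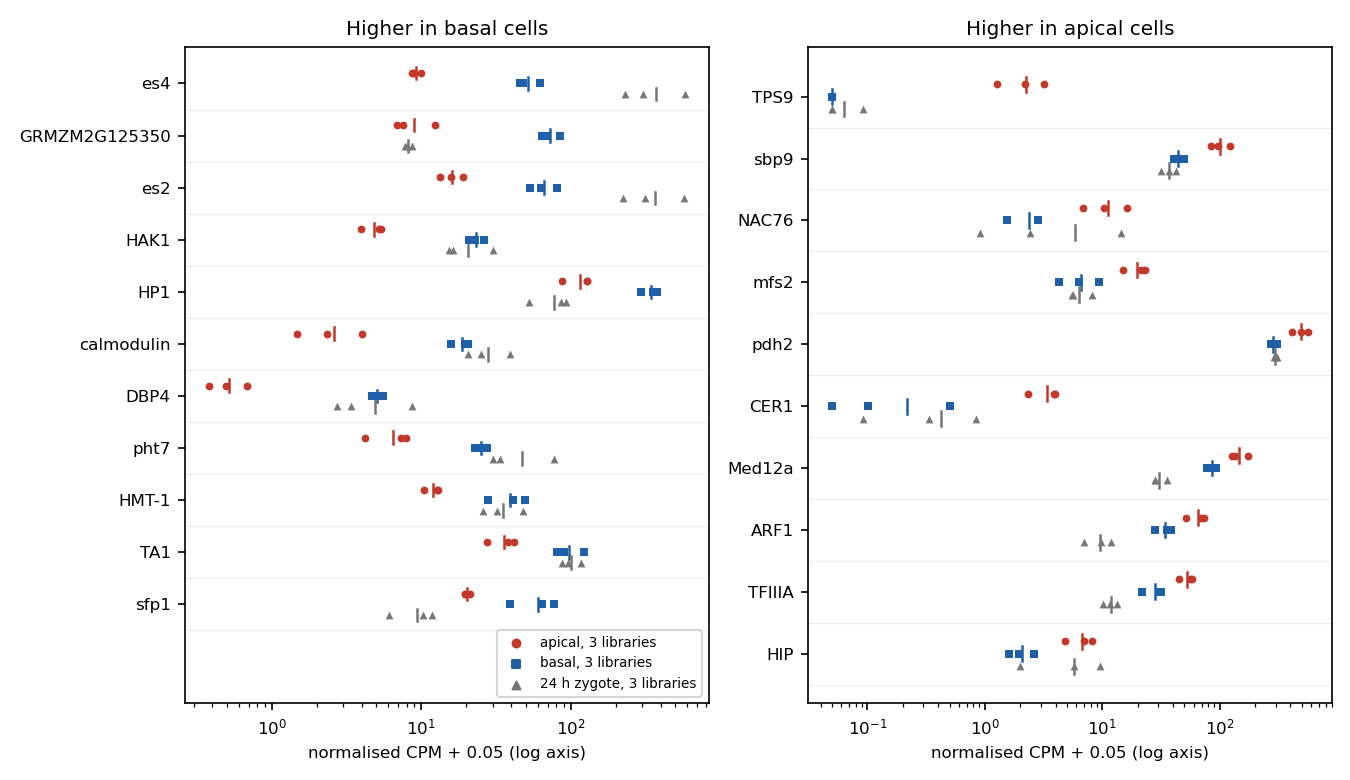
Normalised CPM + 0.05 on a log axis in each apical, basal and 24 h zygote library (points; vertical ticks are means of 3) for the 2 called genes and the named genes with the smallest p, those higher in basal cells on the left and those higher in apical cells on the right. In every row the apical and basal points do not overlap; the zygote points lie with the basal points for HAK1, calmodulin and DBP4 and below both daughters for Med12a, ARF1 and TFIIIA.

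On the apical side the 10 named genes with the smallest p were TPS9, sbp9, NAC76, mfs2, pdh2, CER1, Med12a, ARF1, TFIIIA and HIP, with edgeR adjusted p of 0.238 to 0.504, so none passed. DESeq2 called 6 of them unpaired and all 10 with the block. The SBP-box factor gene sbp9 (GRMZM2G081127) had 83.7, 122 and 97.5 CPM in apical cells and 42.2, 49.9 and 40.4 CPM in basal cells (log2 fold change 1.19 ± 0.21, edgeR adjusted p = 0.260). Basal cells overlapped the 24 h zygotes, and apical cells lay above them. NAC76, of the NAC family, had 16.3, 6.79 and 10.3 CPM in apical cells and 1.48, 2.76 and 2.80 CPM in basal cells, with an edgeR adjusted p of 0.396, and both daughters overlapped the zygotes, which had 2.37, 0.863 and 14.3 CPM.

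For 3 regulators both daughters were above the zygotes and apical cells were highest. Med12a, a subunit of the Mediator complex that links factors to RNA polymerase II, had 136, 128 and 173 CPM in apical cells, 92.9, 85.6 and 77.7 CPM in basal cells and 35.2, 27.9 and 27.8 CPM in 24 h zygotes. ARF1 (GRMZM2G169820), an auxin response factor, had 51.3, 74.1 and 69.3 CPM in apical cells, 35.6, 38.8 and 28.0 CPM in basal cells and 11.8, 9.61 and 6.93 CPM in 24 h zygotes (log2 fold change of apical over basal cells 0.93 ± 0.24, edgeR adjusted p = 0.494). TFIIIA, a factor for the small ribosomal RNA genes read by RNA polymerase III, had 55.9, 58.2 and 45.2 CPM, 30.5, 31.6 and 21.6 CPM and 13.4, 11.6 and 10.1 CPM in the same order. For all tested genes, 26.6% had all apical libraries and 27.3% all basal libraries above the zygotes.

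The gene pdh2 (pgd2), for 6-phosphogluconate dehydrogenase of the oxidative pentose phosphate pathway, had 417, 489 and 567 CPM in apical cells and 273, 274 and 308 CPM in basal cells (log2 fold change 0.78 ± 0.19, edgeR adjusted p = 0.449). CER1, whose Arabidopsis namesake makes wax alkanes, had 3.86, 2.26 and 3.87 CPM in apical cells and 0.0511, 0.452 and 0 CPM in basal cells, where the counts were 1, 9 and 0. TPS9 had 31, 67 and 44 counts in apical libraries and 0 counts in every basal library. Set against a floor of 3 counts over the basal group, it was at least 41.7-fold higher in apical cells (edgeR adjusted p = 0.238). That floor takes in counting error alone, and these libraries differed by more than that. The 24 h zygotes had 0 to 0.0409 CPM. Egg libraries had 0, 2.32 and 0 CPM and sperm libraries 0.274, 0 and 2.27 CPM, so TPS9 varied widely within these groups. All of these TPS9 values come from low counts. The unnamed gene with the smallest p on the apical side, GRMZM2G022120, had 88.3, 75.4 and 61.7 CPM in apical cells and 31.1, 30.0 and 32.4 CPM in basal cells, with an edgeR adjusted p of 0.234.

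DESeq2's 126 calls held 29 named genes, 22 of them higher in basal cells. Apart from the 10 named genes described on each side these were 13, es1 included, of which 12 were higher in basal cells. UGlcAE, by its name an epimerase that makes the sugar nucleotide of pectin, had 5.99, 9.14 and 4.51 CPM in apical cells and 29.2, 19.6 and 29.2 CPM in basal cells (DESeq2 adjusted p = 0.000273, edgeR adjusted p = 0.260). The cellulase gene Cel20 had 6.03, 4.52 and 4.41 CPM against 25.2, 12.9 and 12.9 CPM (DESeq2 adjusted p = 0.00965, edgeR adjusted p = 0.413). AGPLS3, a large subunit of the enzyme that makes the starch precursor ADP-glucose, had 15.9, 24.3 and 21.4 CPM against 71.0, 43.3 and 56.8 CPM (DESeq2 adjusted p = 0.00147, edgeR adjusted p = 0.296).

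The precursor gene of the secreted growth peptide phytosulfokine, psk1, had 42.8, 31.5 and 18.0 CPM in apical cells and between 70.7 and 82.9 CPM in the 3 basal libraries, below the 122 to 182 CPM of the zygotes (DESeq2 adjusted p = 0.0335, edgeR adjusted p = 0.449). The glutathione transferase gene gst41 had 4.06, 2.03 and 0.441 CPM against 10.8, 16.8 and 12.4 CPM (DESeq2 adjusted p = 0.0151, edgeR adjusted p = 0.515). The groups of each of these genes did not overlap, which held for 125 of the 126 DESeq2 calls and so follows from the choice.

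Among genes listed by the symbols of embryo patterning genes of Arabidopsis or maize, none passed edgeR's test between the sister cells. Of 13 members of this list 10 passed the filter on low counts, 0 were called by edgeR, and 1 of the 10 had an unadjusted p under 0.05, beside 8.64% of all tested genes, which is near the background. That gene was ocl3, of the HD-ZIP class IV factors of outer cell layers, with 1.22, 5.23 and 1.47 CPM in apical cells, 9.85, 9.94 and 5.99 CPM in basal cells and 15.5 to 17.1 CPM in 24 h zygotes (log2 fold change -1.70 ± 0.62, edgeR adjusted p = 0.555, and 0.0279 in DESeq2 with the replicate block, which called it). The list's median log2 fold change was -0.32, beside 0.003 for all tested genes.

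Of the relatives of the Arabidopsis WOX genes, wox2A and wox9A were low, and wox9B lay above them in each library. The gene wox2A, whose Arabidopsis relative marks the apical lineage, had 1.73, 0.707 and 0.343 CPM in apical cells and 1.99, 1.21 and 2.13 CPM in basal cells, which overlapped. The gene wox9A had 1.81, 1.46 and 0.490 CPM in apical cells and 2.40, 2.71 and 2.52 CPM in basal cells. The related wox9B (listed as HB85) had 11.6, 7.68 and 0.980 CPM in apical cells and 12.7, 13.9 and 13.7 CPM in basal cells. The reference also gives wox9b as a synonym of wox9A, so the name wox9B is used here for HB85 only. In wox9A and wox9B all basal libraries lay above all apical libraries, but apical replicate 3 was by far the lowest and apical replicate 1 was the closest to the basal level. The edgeR adjusted p was 0.724 for wox2A, 0.650 for wox9A and 0.707 for wox9B, so these markers gave no check of the labels.

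In other members the groups overlapped. The outer cell layer gene ocl1 had 116, 158 and 138 CPM in apical cells and 120, 128 and 126 CPM in basal cells, below the 243 to 254 CPM of the zygotes. ARF5, which shares its symbol with an Arabidopsis gene for embryo and root formation, had 16.1, 10.5 and 8.28 CPM and 13.9, 8.68 and 11.1 CPM. IAA12 had 11.3, 7.63 and 3.97 CPM and 18.4, 8.99 and 9.85 CPM. Both were listed by symbol, and whether they correspond to the Arabidopsis genes of these symbols was not checked. The embryo regulator gene lec1 (listed as CADR1) lay on either side of the basal level in single libraries, at 7.72, 4.05 and 1.27 CPM in apical against 3.78, 4.22 and 3.75 CPM in basal cells. Together with the other homeobox genes 27 genes of both lists were tested. In 23 of these the groups overlapped, in 3 all basal libraries were higher and in 1, homeobox1, all apical libraries were higher, beside 9.83% and 6.31% of all tested genes, and the lowest edgeR adjusted p was 0.555.

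**Figure D4:**
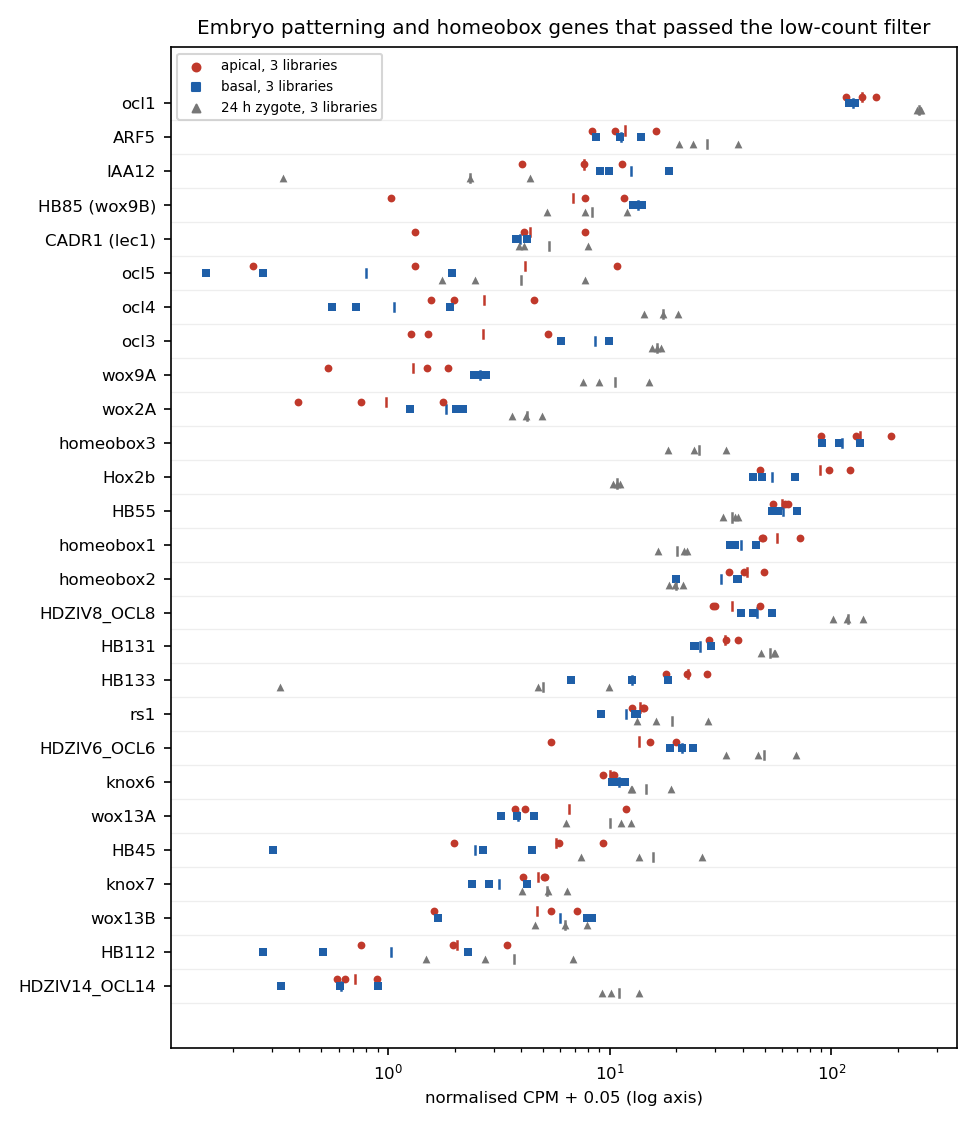
Normalised CPM + 0.05 on a log axis for the 27 tested embryo patterning and homeobox genes in each apical, basal and 24 h zygote library (points; vertical ticks are means of 3). Apical and basal points overlap in 23 rows; wox9A, HB85 (wox9B) and ocl3 have all basal points to the right of the apical points, and homeobox1 the reverse.

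Other gene groups were read through 29 lists matched on gene symbols, of which 1 held a gene called by edgeR, the embryo sac and secreted peptide list with es4. In the other 28 lists edgeR called no member, while DESeq2 without the block called DBP4, EREB20, NAC76 and sbp9 in 3 of them. The counts that follow are from edgeR at an unadjusted p under 0.05, where the share over all tested genes was 8.64%. They count gene IDs, some of which share a name. In the list for auxin synthesis, transport and response, 27 of 33 tested genes had a log2 fold change above 0 and the median was 0.65. Matching on symbols also brought in arf1 (GRMZM2G395844), an entry separate from ARF1. Whether arf1 belongs to auxin response was not checked. In this list 6 were higher in apical cells, namely the response factors ARF1, ARF13, ARF17 and ARF23 and the genes AUX3 and AUX22. Only 1, Yucca6, of an auxin synthesis family, was lower. Yucca6 was low in both cells, at 0.0394, 0.236 and 0.392 CPM in apical and 1.02, 1.15 and 0.560 CPM in basal cells. AUX22 was low too, at 1.54, 5.37 and 1.32 CPM in apical and 0.562, 0.753 and 0.112 CPM in basal cells. ARF13 had 173, 257 and 161 CPM in apical cells and 123, 93.1 and 126 CPM in basal cells, and ARF17 had 101, 87.5 and 99.2 CPM against 77.2, 55.6 and 50.6 CPM. Their edgeR adjusted p were 0.518 and 0.527.

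Levels in this list and in the MADS-box list varied between libraries of the same cell type. The 15 tested MADS-box genes had a median log2 fold change of 0.90, with 0 at an unadjusted p under 0.05 in edgeR. The floral and ovule gene zag2 (listed as mpik32a) had 28.7, 336 and 162 CPM in apical cells and 11.5, 118 and 62.7 CPM in basal cells. The gene bde1 (ZAG3) had 6.46, 479 and 25.6 CPM and 0.357, 39.8 and 33.7 CPM. ZAG1 (listed as MADS37) had 2.44, 125 and 26.6 CPM and 1.38, 24.6 and 13.0 CPM. All 3 were highest in apical replicate 2 and low in replicate 1 of both cells. The summed level of the 22 MADS-box genes was 338, 1315 and 554 CPM in apical cells and 233, 425 and 345 CPM in basal cells. That of the 58 genes of the auxin list was 1004, 1470 and 1368 CPM and 1009, 1014 and 1143 CPM. Of the latter sums arf1 gave 235.6, 242.2 and 265.4 CPM in apical cells and 288.5, 276.2 and 291.9 CPM in basal cells. The part of these libraries in the medians of both lists was not tested.

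Among genes for the making of proteins and chromatin edgeR called none. Of 27 ribosomal protein genes 22 had a log2 fold change below 0, with a median of -0.30, and 4 were higher in basal cells at an unadjusted p under 0.05, among them rps10 and rps24. The gene rps24 had 63.8, 63.2 and 58.2 CPM in apical cells and 102, 88.5 and 92.4 CPM in basal cells, with an edgeR adjusted p of 0.518. Of 7 histone gene IDs 6 were below 0, with a median of -0.56, and 0 had an unadjusted p under 0.05 in edgeR. Those below 0 include GRMZM2G181153 and GRMZM2G149178, which share the name H4C13. Of 46 chromatin and small RNA gene IDs 33 were above 0, with a median of 0.11. Several of these IDs share a name and may not be separate genes. All IDs of chr124, dcl4 and chr122 were above 0, and those of dmt101 lay on both sides. Matching on symbols also brought in HMGR (GRMZM2G393337), with a log2 fold change of -0.88. Whether HMGR is a chromatin gene was not checked. The histone deacetylase genes hda110 and hda113 were higher in apical cells at an unadjusted p under 0.05. The gene hda113 had 73.1, 70.1 and 67.1 CPM in apical and 47.1, 49.7 and 34.2 CPM in basal cells (edgeR adjusted p = 0.524).

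Cell division genes were near balance. Of 24 genes in the list of cyclins, cell cycle kinases and related genes 14 were above 0, with a median of 0.07. That list also holds kinesin genes, KIN6 among them, which are counted again among the cytoskeleton genes below. Higher in basal cells at an unadjusted p under 0.05 were cyc1 (listed as csh9), at 47.0, 50.3 and 38.7 CPM in apical and 82.5, 56.2 and 88.3 CPM in basal cells, and cyclin8, and the kinesin gene KIN6 was higher in apical cells. Of 26 cytoskeleton genes 11 were above 0, and the profilin gene PRO4, which binds actin monomers, had 300, 268 and 295 CPM in apical and 488, 413 and 454 CPM in basal cells (log2 fold change -0.65 ± 0.17, edgeR adjusted p = 0.513). Of 12 DNA replication genes 4 were above 0 and 0 had an unadjusted p under 0.05 in edgeR.

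Of 18 tested cytokinin genes 2 had an unadjusted p under 0.05 in edgeR. That is 11.1% beside 8.64% of all genes, which is near the background. Of these 2 the response regulator gene RR10 was higher in basal cells. It had 37.8, 32.2 and 30.2 CPM in apical and 57.9, 51.6 and 58.9 CPM in basal cells (edgeR unadjusted p = 0.00554, adjusted p = 0.518). The regulator gene abph1 was higher in apical cells at an unadjusted p under 0.05, and the median of the 18 tested genes was 0.29. AP2/EREB factors lay on both sides. Of 21 tested, 4 were higher in apical and 3 in basal cells at an unadjusted p under 0.05, which is 33.3% of the list beside 8.64% of all genes. EREB20 had 0.118, 2.07 and 0.196 CPM in apical and 7.30, 6.53 and 8.50 CPM in basal cells, a log2 fold change of -3.22 ± 0.98, an edgeR adjusted p of 0.524 and a DESeq2 adjusted p of 0.0496.

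**Figure D5:**
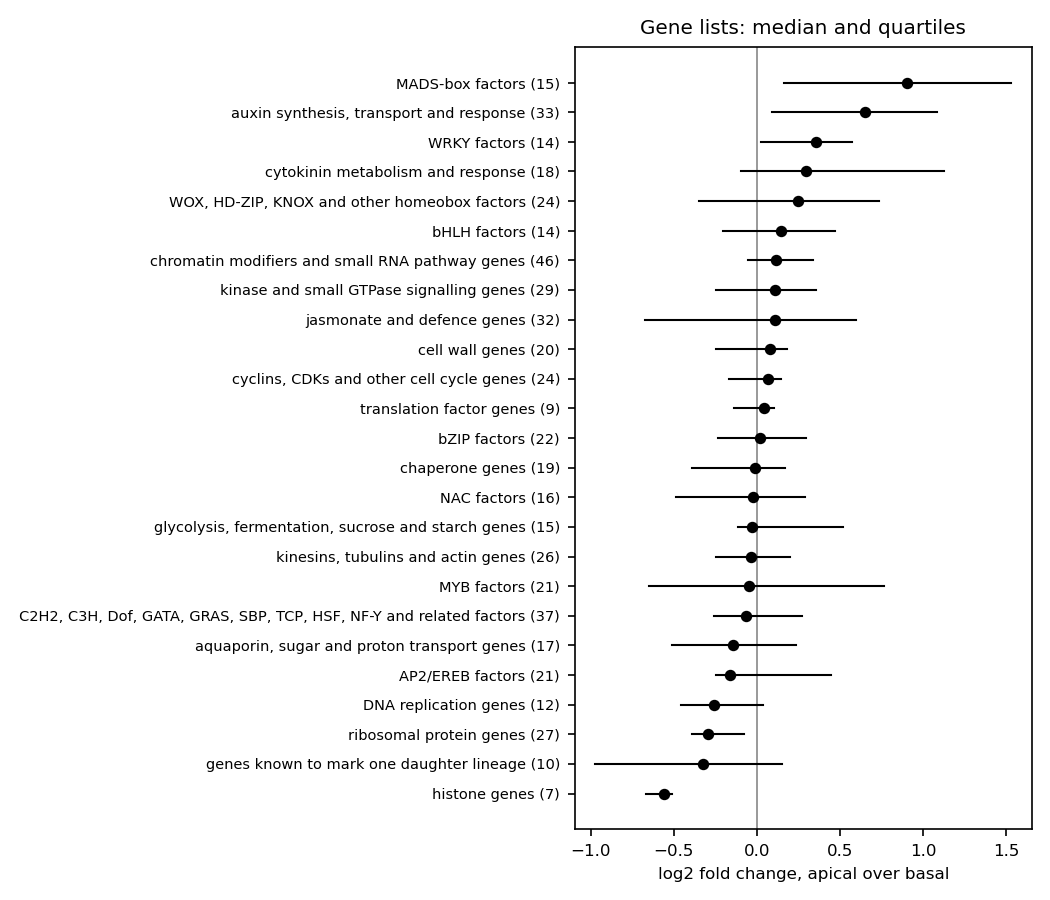
Median (points) and quartiles (lines) of the log2 fold change of apical over basal cells for each gene list with at least 7 tested genes, the number tested in brackets; the grey vertical line is the median of all 20100 tested genes. The medians run from -0.56 in the histone list to 0.90 in the MADS-box list.

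Summed levels of markers of other tissues overlapped between the cell types. The green tissue markers summed to 1.26 to 4.10 CPM in apical and 2.09 to 3.41 CPM in basal libraries. The pollen and sperm markers summed to 92.8 to 137 CPM and 62.6 to 120 CPM, of which most was PepR1, and the sperm fusion gene hap2 had 0.245 to 3.53 CPM. The 36 endosperm markers summed to 348 to 433 CPM and 317 to 400 CPM, with mez1 the largest part, and 10 of them had 0 counts in all 6 libraries. The zein storage protein genes, read apart after values were seen, summed to 0.441 to 2.36 CPM in 5 libraries and 55.7 CPM in basal replicate 3. MRP1, a regulator of endosperm transfer cells, had 4.89, 39.3 and 41.5 CPM in apical and 0.204, 34.4 and 34.4 CPM in basal cells, low in replicate 1 of both.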

How the data were processed

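The authors deposited raw counts per gene, whole numbers per library with no normalization. Per the submitters' processing notes, the build was B73 RefGen_v3 and the tools include STAR 2.5.2a and featureCounts, with cutadapt 1.13 and Trimmomatic 0.32. How strand and multiply mapping reads were handled is not given in the sources used here. Names came from RefSeq genes of Zm-B73-REFERENCE-NAM-5.0, which named 2559 of 39475 IDs, and 0 rows named no gene.

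From the counts, apical and basal libraries were compared in R 4.3.3 by the quasi-likelihood test of edgeR 4.0.16 after TMM scaling and filterByExpr, with robust dispersions and Benjamini-Hochberg adjustment. The fit without a block is the main result. DESeq2 1.42.0 and limma 3.58.1 (voom) were alternatives, along with the replicate block, other scalings and filters, a fit of 15 libraries and the leaving out of libraries. CPM are normalised on 1 scale over all 18 libraries. Standard errors of log2 fold changes come from the F statistic. Ratios of numbered pairs added 0.5 CPM. A gene at 0 counts in a group was set against a floor of 3 counts. Counting error alone enters that floor, since reads carry no molecular identifiers. The chi-square per degree of freedom between libraries, over genes reaching 20 counts, was 39.1 or more, so no pair agreed within sampling noise. Whether replicates are separate plants is not labelled, so the p-values reflect the spread of these libraries, possibly technical.

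Named genes are called genes, or, with fewer than 10 called, the 10 named genes of smallest p per direction, and the tested embryo patterning and homeobox genes. Others were picked once their values were known: es1, the DESeq2 and list genes, the markers and the unnamed genes other than GRMZM2G125350. The comparison, rule and lists were chosen with earlier results of these data known.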

Additional observations from a re-analysis of the deposited data

How the results depend on the processing

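The count of called genes was 2, with 0 higher in apical and 2 higher in basal cells. It was 0 with the replicate block, RLE scaling, library size only, limma-voom, the fit of 15 libraries and non-robust dispersions, with 2360, 1739, 1613, 1843, 1266 and 1743 genes at an unadjusted p under 0.05. It was 2 with upper-quartile scaling and at an adjusted p of 0.1, and 3 with no filter and with a mean of at least 5 CPM. Without each library or each replicate number it ranged from 0 to 0, with 762 to 2735 genes at an unadjusted p under 0.05 in edgeR. DESeq2 called 126 (42 higher in apical, 84 higher in basal cells) and with the replicate block 613 (380 and 233), so the split turned from mostly basal to mostly apical. Of the 613, 407 had an unadjusted p under 0.05 in edgeR and 353 had groups that do not overlap. The cause was not tested. Over all tested genes the median log2 fold change stayed within -0.05 and 0.04.

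Same-numbered libraries deviated together for number 1 (correlation 0.33) and number 2 (0.36) but not for number 3 (-0.002), where apical replicate 3 correlated best with basal replicate 2 (0.11). The labels do not state a pairing, so the numbers were not taken to pair the samples. Over 54 named genes and 21 alternatives, 30 values lost and 47 gained the threshold. The sign changed in 25 values of 6 genes, none of them called, ARF5, ocl5 and lec1 among them. Low counts limit TPS9, CER1 and wox2A.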
